A study of Mus musculus with 3 samples.

Results

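B-lineage cells were examined in droplet single-cell RNA sequencing of long bone from 3-week-old untreated C57BL/6 mice. Members were chosen by measured counts of the gate genes, so the levels of those genes are not a finding. The gate asked for 4 or more unique molecular identifiers (UMIs, tags that count each captured RNA molecule once) of *Cd79a*, *Cd79b* and *Vpreb3* together, at least 2 UMIs of *Laptm5*, *Coro1a* and *Cd52* together, fewer than 5 UMIs of the macrophage genes *C1qa* and *C1qb*, and at most 1 UMI of the endothelial genes *Pecam1* and *Cdh5*. Barcodes had to show 1000 genes or more, with mitochondrial UMIs up to 15% and ribosomal UMIs up to 30%, and the gate took 210 of 16298 cells. Metaphyseal replicates 1 and 2 were wild-type C57BL/6J males, whose dissected metaphysis was depleted of lineage-positive cells and then of CD45+ and CD117+ cells with magnetic beads. The single *Pdgfra-GFP* library came from males heterozygous for a nuclear *Pdgfra-H2B-GFP* reporter, sorted by flow cytometry for GFP, with no bead depletion stated. Its tissue was the metaphysis of femur and tibia by the methods, and metaphysis with epiphysis by the main text of the study. How many mice went into a library is not stated, so the replicates measure the spread between libraries only. The libraries held 25243314, 22082735 and 91747759 UMIs. Values for 3 libraries are given below in the order metaphyseal replicate 1, metaphyseal replicate 2, *Pdgfra-GFP*.

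B lymphocytes of the marrow pass through ordered stages that are read from a few genes. Pro-B cells rearrange the heavy chain locus with the recombinase RAG1 and RAG2 and the template-free polymerase TdT (*Dntt*). A rearranged heavy chain then pairs with the surrogate light chain, made of VPREB1 or VPREB2 with the λ5 protein (*Igll1*), and this pre-B cell receptor drives division of large pre-B cells. Small pre-B cells stop dividing, lose the surrogate light chain and rearrange the kappa and then the lambda light chain, and immature B cells display IgM before mature cells add IgD (*Ighd*) and CD20 (*Ms4a1*). Stromal cells of the marrow feed these stages with IL-7 and CXCL12.

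Surrogate light chain RNA is used below to split the gated cells, so the annotated starts of its genes are shown, beside that of the gate gene *Vpreb3*. Windows of 250 bases before to 50 bases after the annotated start were taken from RefSeq (GRCm38.p6), in which 7 of 8 genes looked for had a window (*Cd79b* had none). Capitals mark the E-box CAGGTG, which reads as CACCTG on the other strand and is bound by E proteins such as E2A, and the octamer ATTTGCAT, which reads as ATGCAAAT on the other strand and is bound by OCT factors. No E-box overlapped an octamer. The windows lie at chr16:16863936-16864235, minus strand (*Igll1*), chr16:16869206-16869505, minus strand (*Vpreb1*), chr16:17980315-17980614, plus strand (*Vpreb2*) and chr10:75948050-75948349, plus strand (*Vpreb3*), and each is written 5′ to 3′ along its gene.
Igll1: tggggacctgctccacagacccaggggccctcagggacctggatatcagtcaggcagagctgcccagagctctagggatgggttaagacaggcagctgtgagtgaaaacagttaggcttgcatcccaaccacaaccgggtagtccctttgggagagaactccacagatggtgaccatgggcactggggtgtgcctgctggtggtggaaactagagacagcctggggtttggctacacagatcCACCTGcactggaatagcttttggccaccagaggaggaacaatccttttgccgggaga
Vpreb1: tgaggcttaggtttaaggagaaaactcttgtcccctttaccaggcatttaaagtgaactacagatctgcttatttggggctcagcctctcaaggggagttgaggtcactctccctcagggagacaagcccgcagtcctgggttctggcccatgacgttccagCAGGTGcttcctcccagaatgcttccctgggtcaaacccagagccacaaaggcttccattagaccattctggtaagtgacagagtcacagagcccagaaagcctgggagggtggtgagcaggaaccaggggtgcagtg
Vpreb2: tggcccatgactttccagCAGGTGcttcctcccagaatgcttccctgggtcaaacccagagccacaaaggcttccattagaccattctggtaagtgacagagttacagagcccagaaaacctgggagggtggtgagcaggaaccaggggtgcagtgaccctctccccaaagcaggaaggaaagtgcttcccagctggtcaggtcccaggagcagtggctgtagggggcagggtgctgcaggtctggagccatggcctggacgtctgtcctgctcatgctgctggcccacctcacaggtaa
Vpreb3: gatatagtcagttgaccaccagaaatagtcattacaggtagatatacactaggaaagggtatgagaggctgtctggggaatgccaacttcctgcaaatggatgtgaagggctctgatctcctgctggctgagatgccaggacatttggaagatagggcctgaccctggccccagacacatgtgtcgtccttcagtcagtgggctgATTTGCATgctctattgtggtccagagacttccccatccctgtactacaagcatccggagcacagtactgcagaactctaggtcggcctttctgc
The E-box stood in 5 of the 7 windows, those of *Igll1*, *Vpreb1*, *Vpreb2*, *Cd79a* and *Blnk*, and 20.2% of all 32851 promoter windows of this length held it. The octamer stood in 2, those of *Vpreb3* and *Blnk*, against 1.74% of all windows. A match of letters is not a bound site, and no binding was measured. The Gencode annotation lets *Vpreb1*, *Vpreb2* and *Vpreb3* begin further upstream, at chr16:16870843, chr16:17980428 and chr10:75943057. Their windows may therefore miss the promoter in use. *Vpreb1* and *Vpreb2*, both on chromosome 16, shared a run of 91 identical bases in these windows. This run holds the E-box of both, so their matches are not separate. Of the 50-base stretches of *Vpreb2* transcripts, 32.8% also occurred in *Vpreb1* transcripts, so UMIs of these 2 paralogues may be split between them.

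The gated cells numbered 91 of 2743 kept cells in metaphyseal replicate 1 (3.32%, exact 95% binomial interval 2.68 to 4.06), 65 of 2313 in metaphyseal replicate 2 (2.81%, 2.18 to 3.57) and 54 of 11242 in the *Pdgfra-GFP* library (0.480%, 0.361 to 0.626). The intervals of both metaphyseal libraries overlapped, and the share was lower in the sorted library. These are shares of cells taken after depletion or sorting, not of the marrow, and with 1 sorted library the difference had no test. All intervals cover counting error only. The threshold of the gate lay in a sparse region. Of the 210 members, 204 had 10 or more gate UMIs, 2 had exactly 4, and just outside it 2 cells that met the other criteria had 3 UMIs and 1 had 2. Members held a median of 31, 26 and 27 gate UMIs and 3062, 3424 and 3837 UMIs in all, fewer than the medians of 5886, 6012 and 5330 UMIs over all kept cells. A minimum of 1500 genes, which the study used for metaphyseal cells, would have left out 86 of their 156 members. No member barcode was shared with a member of another library, although 2, 9 and 11 barcodes of kept cells were shared between pairs of libraries, and Scrublet called 0, 1 and 2 members doublets.

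The genes that served the gate are given as a description. *Cd79a*, a signalling chain of the B cell receptor, stood at 1978, 1473 and 1221 CPM (CPM, the gene's summed UMIs scaled to a common total of 1e6 UMIs per library). *Cd79b*, its partner, stood at 1778, 1304 and 1248 CPM, and *Vpreb3*, a surrogate light chain homologue of the B lineage, at 4221, 2950.0 and 2597 CPM. In the sorted library 14 members with 1% or more UMIs of other-cell markers held 140948 of the 289960 member UMIs (48.6%), against 13.5% and 27.1% in the metaphyseal libraries. Without such members, a setting chosen after the data were seen, *Cd79a* stood at 2182, 1847 and 1866 CPM, *Cd79b* at 1917, 1702 and 1926 CPM and *Vpreb3* at 4692, 3857 and 4295 CPM, and the sorted library was not the lowest for any of the 3 genes. A marker outside the gate was used to check the label. *Ighm*, the µ heavy chain, had a UMI in 91, 64 and 53 members, against 1.24, 1.13 and 1.68% of non-haematopoietic cells, which should lack it and give the level of free RNA. The median depth of the latter was 5865, 5983 and 5226 UMIs. After thinning each cell to 2000 UMIs, which left out 2, 1 and 4 members, *Ighm* was seen in 97.8, 95.3 and 92.00% of members. *Jchain* and *Tnfrsf17*, which mark plasma cells, were at 0 in every library, which at 3 counts allows up to 7.98, 9.10 and 10.3 CPM. *Cd3d*, *Trac* and other T cell markers summed to at most 0.00798% of member UMIs in any library.

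*Ighm* (chr12:113418558-113422730, GRCm38) stood at 2994, 2495 and 2883 CPM, with a median of 12, 11 and 12.5 UMIs per member, and was at 0 in 2 members. *Igkc* (chr6:70726435-70726966), the kappa constant region, stood at 3369.6, 2432 and 2052 CPM and had a UMI in 62, 49 and 40 members. Without members holding other-cell RNA *Ighm* stood at 3175, 3124 and 4543 CPM and *Igkc* at 3615, 3266 and 3154 CPM. Of the lambda constant genes, *Iglc1* was at 133, 412 and 86.2 CPM, *Iglc2* at 95.8, 103 and 121 CPM and *Iglc3* at 159.70, 155 and 75.9 CPM, and metaphyseal replicate 2 was high for *Iglc1* alone. Lambda UMIs made up 10.3%, 21.6% and 12.1% of all light chain UMIs. *Ighd*, the δ heavy chain, stood at 18.6, 21.2 and 41.4 CPM. Of the switched heavy chains, *Ighg1*, *Ighg2c*, *Ighg3*, *Igha* and *Ighe* were at 0 in every library and *Ighg2b* had a UMI in 1, 2 and 0 members.

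Genes of the pro-B and pre-B stages were present in each library. *Igll1* stood at 735, 446 and 793 CPM, *Vpreb1* at 1813, 1155 and 838 CPM and *Vpreb2* at 157, 130.37 and 62.1 CPM. *Dntt* stood at 644, 355 and 300.04 CPM in 27, 17 and 13 members. Without members holding other-cell RNA it stood at 745, 474 and 517 CPM, with the sorted library no longer lowest. The recombinase gene *Rag2* stood at 45.2, 57.6 and 48.3 CPM, whereas *Rag1* stood at 165, 158 and 27.6 CPM and was low in the sorted library, where 6 of 54 members had a UMI. Also lowest there were *Il7r*, the IL-7 receptor chain, at 256, 203 and 86.2 CPM, and *Pax5*, the factor that commits cells to the lineage, at 154, 236 and 51.7 CPM. Without members holding other-cell RNA *Rag1*, *Il7r* and *Pax5* were still lowest there, at 169, 212 and 40.3 CPM, 277, 258 and 154 CPM and 163, 291 and 73.8 CPM. *Ebf1*, which acts with PAX5, stood at 3798, 2692 and 2255 CPM in 89, 64 and 54 members, but it was also seen in 62.8, 65.9 and 68.8% of non-haematopoietic cells. *Spib* and *Pou2af1*, a factor and a co-activator of B cells, stood at 287, 197 and 141 CPM and 239.54, 121 and 200.03 CPM. Without members holding other-cell RNA they stood at 308, 250 and 242 CPM and 265, 141 and 329 CPM.

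Of the 12 listed cytokine receptor genes 11 were detected, and 8 were lowest in the sorted library, beside 30.6% of all 14943 genes detected in members. The share was 38.2% among genes with a mean of at least 50 CPM. Of 15 homing and adhesion genes 14 were detected, and 8 were lowest there. Without members holding other-cell RNA these numbers were 6 of 11 and 7 of 13, beside 33.9% of all genes and 33.4% of those with a mean of at least 50 CPM. *Cxcr4*, the receptor of CXCL12, stood at 436, 285 and 72.4 CPM. *Itga4*, an integrin chain that binds VCAM1, stood at 154, 139 and 41.4 CPM. *Tnfrsf13c*, the BAFF receptor, stood at 178, 127 and 79.3 CPM. Without those members *Cxcr4* stood at 477, 362 and 121 CPM, *Itga4* at 148, 166 and 67.1 CPM and *Tnfrsf13c* at 197, 171 and 141 CPM, still lowest in the sorted library. *Ptprc* (CD45) and *Kit* (CD117), the targets of the bead depletion of the metaphyseal libraries, were at 109, 112 and 44.8 CPM and 7.98, 9.10 and 6.90 CPM. CD45 RNA was detected in 32, 26 and 12 members, *Kit* in 3, 3 and 1, and *Flt3*, a receptor of early progenitors, in none. Of 10 MHC class II genes, 8 were highest in the sorted library with or without those members, beside 38.9% and 33.0% of all genes. Among genes with a mean of at least 50 CPM these shares were 43.7% and 49.1%. These tallies describe 3 libraries and carry no test. *Cd74*, the invariant chain, stood at 562, 706 and 1014 CPM, *H2-Aa* at 122, 112 and 231 CPM and *H2-Ab1* at 154, 203 and 400.06 CPM, with the sorted library highest for each. With 1 sorted library these differences were not tested, and mouse line, tissue region, sort, depletion and handling cannot be told apart. Neutrophil precursors of the same libraries, at 41.8, 82.03 and 13.3 CPM of *Cxcr4* and 314, 317 and 88.8 CPM of *Jund*, were also lowest in the sorted library for both genes. *Jund*, a JUN family factor, stood at 2678, 2053 and 524 CPM in members.

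**Figure D1:**
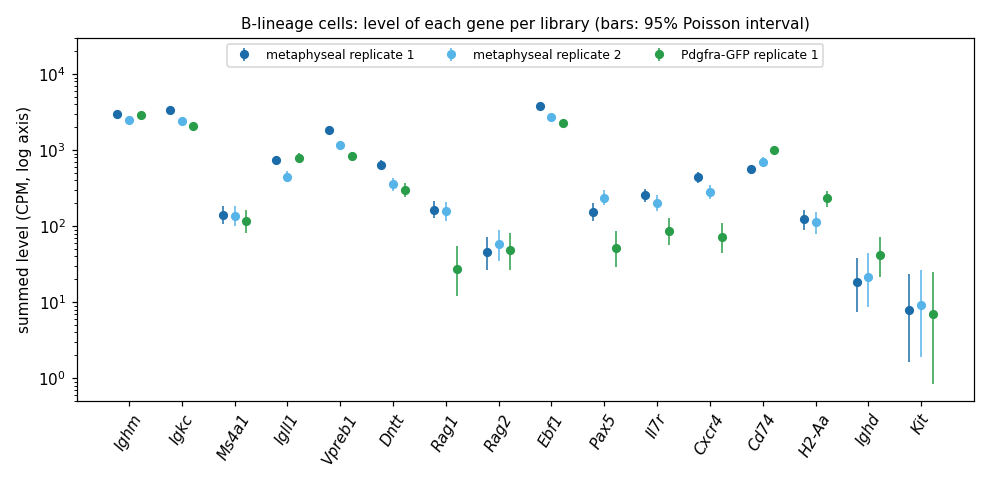
Summed level of 16 genes in B-lineage cells of each library (CPM on a log axis, points) with exact 95% Poisson intervals (bars). *Ighm* and *Rag2* lie close together in the 3 libraries, while *Rag1*, *Pax5*, *Il7r* and *Cxcr4* are lowest in the *Pdgfra-GFP* library and *Cd74* and *H2-Aa* are highest there. All members are shown. Without those holding other-cell RNA *Ighm* stood at 3175, 3124 and 4543 CPM and *Rag2* at 49.2, 74.9 and 87.2 CPM, highest in the *Pdgfra-GFP* library.

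Members fell into a surrogate light chain positive class, with 2 or more UMIs of *Igll1* and *Vpreb1* together, and the rest. The class held 34 of 91, 25 of 65 and 18 of 54 members (37.4%, 38.5% and 33.3%), and few cells lay near the threshold, with 122 members at 0 UMIs, 11 at 1 and 7 at 2 or 3, against a median of 25 UMIs within the class. Of the stage genes that the split did not use, *Dntt*, the light chains, *Ighd* and *Ms4a1* differed between the class and the rest as follows. *Rag1* was seen in 21 of 34, 13 of 25 and 2 of 18 members of the class and in 16 of 57, 12 of 40 and 4 of 36 others, more often in the class in both metaphyseal libraries and in an equal share in the sorted library. All 57 members with a *Dntt* UMI were in the class. An *Igkc* count of 5 or more was found in 11.8%, 28.0% and 16.7% of the class and in 94.7%, 92.5% and 86.1% of the other members. Of 71 members with fewer than 5 UMIs of kappa and of lambda, 63 were in the class, and none of the 26 members with 2 or more UMIs of *Ighd* and *Ms4a1* together was. The median *Ighm* count per cell was 6, 8 and 9.5 UMIs in the class and 15, 15 and 16 UMIs outside it. Of 24 members with 5 or more lambda UMIs, 21 also had 5 or more *Igkc* UMIs, and 18 had more kappa than lambda.

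**Figure D2:**
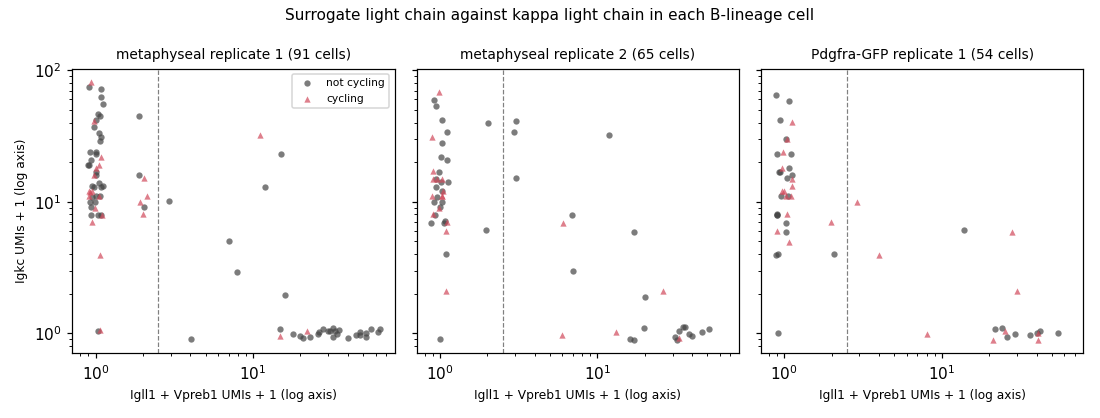
UMIs of *Igll1* and *Vpreb1* together against UMIs of *Igkc* in each B-lineage cell, both plus 1 on log axes with points spread slightly; triangles are cycling cells and the dashed line is the threshold of 2 UMIs. In each library most cells right of the line have no *Igkc* UMI and most cells left of it have 5 or more.

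Cycling members, with 2 or more UMIs of *Mki67* and *Top2a* together, numbered 23 of 91, 20 of 65 and 23 of 54 (25.3%, 30.8% and 42.6%). Of the 66, 49 were outside the surrogate light chain class. Surrogate light chain positive members with no *Dntt* UMI were cycling in 3 of 7, 1 of 8 and 5 of 5 cases, and those with *Dntt* in 0 of 27, 4 of 17 and 4 of 13, so metaphyseal replicate 2 went the other way from the other 2 libraries. Within the class 8.82%, 20% and 50% were cycling, and outside it 35.1%, 37.5% and 38.9%, so both metaphyseal libraries had fewer cycling cells in the class and the sorted library had more, on 3, 5 and 9 cells. Members with *Ighd* or *Ms4a1* that neither cycled nor carried the surrogate light chain, a class chosen after values were seen, numbered 8, 7 and 7 (8.79%, 10.8% and 12.96%). Their median MHC class II sum was 16.5, 10 and 33 UMIs per cell. In the sorted library those 7 cells had a median of 10532 UMIs, against 2788 and 2673 UMIs in the metaphyseal libraries. *Fcer2a* and *Cr2*, genes of mature follicular and marginal zone cells, had a UMI in 1 member each. The other 29, 18 and 15 members held a median of 15, 9.5 and 10 *Igkc* UMIs and 14, 11.5 and 12 *Ighm* UMIs.

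**Figure D3:**
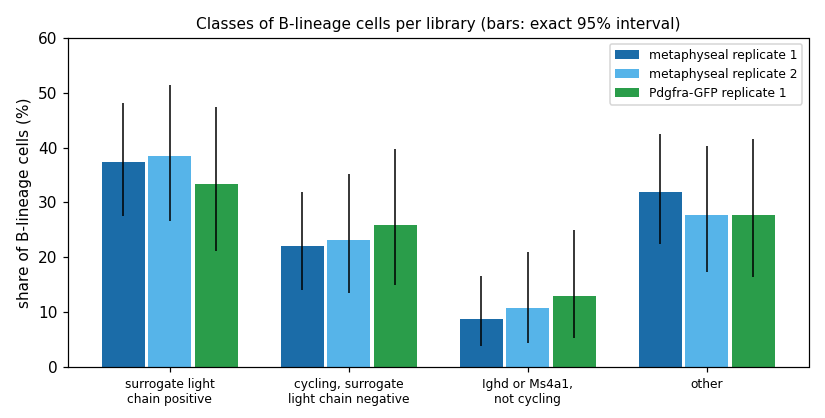
Share of B-lineage cells in 4 classes per library (bars, %) with exact 95% binomial intervals (lines). Surrogate light chain positive cells make up 37.4%, 38.5% and 33.3% of members, and the intervals of the libraries overlap in every class.

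Surrogate light chain positive members were compared with the other members by UMIs summed per library. The class carried more RNA of the factor *Lef1* and less of *Igkc*, *H2-Ab1* and *Klf2*. The pro-B gene *Dntt* was seen in the class alone, and lambda constant genes outside it alone. Genes at or near 0 in 1 group passed the filter on low counts through the other group, so a gene of this kind could enter the test only where it differed. Of 2485 genes, 40 passed an adjusted p of 0.05 (1.61%, by edgeR's quasi-likelihood test with the library as a block and Benjamini-Hochberg adjustment), 22 higher (0.885%) and 18 lower (0.724%). *Igll1*, *Vpreb1* and *Vpreb2* were left out of the calls, since the split used the first pair and *Vpreb2* shares part of its sequence with *Vpreb1*. *Dntt* was at 1839.9, 1081 and 989 CPM against 0, 0 and 0 CPM in the other members, and was at least 303-fold higher against a floor of 3 UMIs over the group. *Lef1*, a transcription factor of lymphoid precursors, was at 487, 296 and 352 CPM against 32.8, 22.6 and 24.8 CPM, a log2 difference of 3.57 ± 0.28 (SE, adjusted p = 0.011). For each gene named here as higher or lower, the 3 values of the class lay wholly outside the range of the others. *Erg*, an ETS factor of haematopoietic progenitors, was at 129, 102 and 125 CPM against 0, 4.51 and 4.95 CPM and differed by 39.7-fold (95% counting interval 10.3 to 339.71). It was at or near 0 outside the class, so this is a description only. *Arpp21*, a thymocyte- and brain-expressed phosphoprotein gene, was at 259, 157 and 125 CPM against 0, 0 and 0 CPM, at least 42.1-fold higher.

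Several light chain and MHC class II genes were lower in the class. *Igkc* was at 616, 1294 and 262 CPM against 4853, 2987 and 2832 CPM, a log2 difference of -2.73 ± 0.41 (SE, adjusted p = 0.034) in edgeR. *Iglc1*, *Iglc2* and *Iglc3* were at 0 in the class in every library and at least 34.5-fold, at least 17.2-fold and at least 21.8-fold lower than in the other members. *Ms4a1* was at 7.60, 0 and 0 CPM against 213, 203 and 168 CPM, lower by 64.3-fold (95% counting interval 11.3 to 2558). *Cd74* was at 0, 46.2 and 22.7 CPM against 864, 1029 and 1445 CPM, a log2 difference of -5.90 ± 0.52 (SE) in edgeR. It was at or near 0 in the class, so this is a description only. *H2-Ab1* was at 53.2, 92.4 and 205 CPM against 209, 257 and 485 CPM, a difference of -1.77 ± 0.25 (SE, adjusted p = 0.030 in edgeR). Its call was lost in 5 of 12 alternatives, that of *H2-Aa* in 4, of *Klf2* in 3, of *Igkc* in 2 and of *Lef1* in 1. *H2-Aa* differed by -3.53, and *H2-Eb1* was lower by 25.3-fold (95% counting interval 6.82 to 211). *Ccr7*, a lymph node homing receptor, was lower by 19.9-fold (95% counting interval 5.33 to 167). *Klf2*, a factor of resting lymphocytes, differed by -2.20 on the log2 scale and was lower in 3 of 3 libraries. Erythroid and stromal RNA moved with this split without passing. *Hba-a1* was at 15.2, 46.2 and 56.8 CPM against 9189.6, 25070.4 and 198 CPM (adjusted p = 0.065 in edgeR), and the 6 stromal markers tested had a median log2 difference of -1.86, among them *Col1a1* at 76.03, 148 and 671 CPM against 102, 835 and 21331 CPM (adjusted p = 0.19).

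Other genes of the list did not pass. *Rag1* was at 274, 231 and 45.5 CPM against 106, 122 and 19.8 CPM (adjusted p = 0.27 in edgeR) and *Rag2* at 83.6, 120.13 and 114 CPM against 24.6, 27.1 and 19.8 CPM (adjusted p = 0.086), and *Ebf1* at 4683, 4019.6 and 3411 CPM against 3321, 2044 and 1752 CPM (adjusted p = 0.16). *Il7r* was at 152, 277 and 68.2 CPM against 311, 167 and 94.1 CPM, which differed in direction among the libraries. *Ighm* was at 1832, 2088 and 2535 CPM against 3620.1, 2694 and 3035 CPM (adjusted p = 0.090). Of 8 MHC class I genes none passed, beside 1.61% of all genes, so a list this short says little. The number of calls rested on both metaphyseal libraries. Without metaphyseal replicate 1 the test called 2 genes, without metaphyseal replicate 2 it called 6, and without the *Pdgfra-GFP* library 159. Without the 25 members that held 1% or more UMIs of other-cell markers, a setting chosen after the data were seen, it called 168, and under a minimum of 1500 genes for metaphyseal cells 10.

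**Figure D4:**
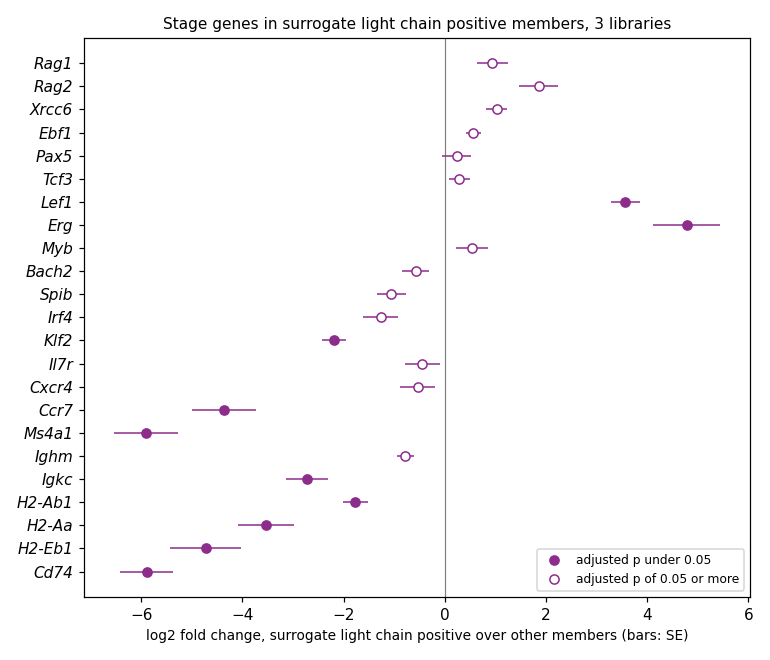
Log2 fold change of 23 stage genes in surrogate light chain positive members over the other members (points) with the standard error from edgeR (bars); filled points have an adjusted p under 0.05. *Lef1* and *Erg* lie to the right, the MHC class II genes, *Ms4a1*, *Ccr7*, *Igkc* and *Klf2* to the left, and *Rag1*, *Rag2* and *Ebf1* have open points.

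Cycling members were compared with the others to ask how stage genes differed. Cycling members without the surrogate light chain were deeper, at medians of 6240.5, 5835 and 4330.5 UMIs, than the other class, at 2461, 2726.5 and 2527 UMIs. The split used *Mki67* and *Top2a*, so the rise of 8 of 9 further S phase genes and 11 of 11 further G2/M genes only describes it. Of 2350 genes tested, 344 passed an adjusted p of 0.05 in edgeR (14.6%), 223 higher (9.49%) and 121 lower (5.15%), and the median log2 difference over all of them was -0.10. *Hmgb2*, a chromatin protein of dividing cells, was at 6608, 6164 and 7026 CPM against 976, 849 and 916 CPM, a log2 difference of 2.71 ± 0.16 (SE, adjusted p = 7.5e-05) in edgeR. *Rrm2*, a subunit of ribonucleotide reductase, was at 562, 514 and 626 CPM against 12.96, 12.8 and 6.11 CPM. Genes were ranked if they had a mean of at least 50 CPM in the higher group and moved alike in all libraries. The 10 with the largest rise were *Esco2*, *Kif11*, *Cdca5*, *Ncaph*, *Cdca2*, *Ska1*, *Pbk*, *Ccnb1*, *Neil3* and *Cdk1*. *Esco2* and *Kif11*, at 0 in every library outside the cycling members, were at least 33.6-fold and at least 28.2-fold higher. Such genes passed the filter on low counts through cycling members alone, so they could enter the test only where they differed.

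Of the light chain constant genes *Igkc*, *Iglc1* and *Iglc3* passed as lower in cycling members and *Iglc2* did not. *Igkc* was at 2358, 1327 and 1711 CPM against 4000.1, 3653 and 2315 CPM, a log2 difference of -1.02 ± 0.18 (SE, adjusted p = 0.0063) in edgeR, but under a minimum of 1500 genes for metaphyseal cells it turned to 0.29 and did not pass. It was lower in 3 of 3 libraries, but the ranges of the 2 groups met at the edge, with the cycling members of metaphyseal replicate 1 above the others of the sorted library. *Iglc1* and *Iglc3* differed by -2.20 and -2.29, lower in 3 of 3 libraries. *Vpreb1* was at 229, 283 and 657 CPM against 2799, 2120.5 and 977 CPM, a difference of -2.47 ± 0.46 (SE, adjusted p = 0.0092), and its paralogue *Vpreb2* at 13.9, 17.3 and 63.4 CPM against 246, 255 and 61.1 CPM, where the sorted library showed no fall. *Igll1* did not pass (adjusted p = 0.066 in edgeR), at 111, 173 and 871 CPM against 1123, 747 and 733 CPM, but it passed as lower in 7 of 12 alternatives. Of 6 MHC class I genes tested, 4 passed as lower, and of 5 MHC class II genes 1 did (*Cd74*), beside 5.15% of all genes. *Cd74* lost its call in 7 of 12 alternatives and *B2m* in 5 of 12. *H2-K1* was at 742, 479 and 887 CPM against 1521, 1188 and 1252 CPM, a difference of -1.08 ± 0.18 (SE, adjusted p = 0.0049), and *B2m* at 1075, 906 and 2796 CPM against 1546, 1469 and 3647 CPM. *Ebf1*, *Jund* and the survival gene *Mcl1* passed as lower over the 3 libraries, at adjusted p of 0.027, 0.042 and 0.030 in edgeR. The sorted library lay in the opposite direction for each, for *Mcl1* by 5.24 CPM only. *Ebf1*, for example, was at 2226, 1576 and 2345 CPM against 4778, 3928 and 2187 CPM. None of 5 cytokine receptors and none of 5 homing genes tested passed, beside 14.6% of all genes, so lists this short say little. Leaving out metaphyseal replicate 1 or 2 left 187 or 158 calls, and *Ebf1*, *Jund*, *Mcl1*, *B2m*, *H2-D1*, *Cd37* and *Cd74* lost theirs in both cases.

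Stromal genes moved with this comparison. All 6 stromal markers tested passed as lower in cycling members, beside 5.15% of all genes. The most abundant, *Sparc*, was at 139, 34.6 and 14107 CPM against 298, 217 and 23920.3 CPM. *Col1a1* was at 83.2, 104 and 3857 CPM against 99.4, 1169 and 23707 CPM, a log2 difference of -2.58 ± 0.45 (SE, adjusted p = 0.0068) in edgeR. Without the 25 members with other-cell RNA the differences of *Col1a1* and *Sparc* were -0.38 and -0.61, with adjusted p of 0.30 and 0.13 in edgeR.

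Neutrophil precursors, gated by 4 or more UMIs of *Ngp* and *Camp* together with the same haematopoietic, macrophage and endothelial criteria and at most 1 UMI of the B-lineage gate genes, were found in every library (59, 49 and 106 cells) and served as a reference. Other haematopoietic types apart from macrophages were not gated. Members carried less RNA of glycolytic genes. Of 4873 genes, 1562 passed an adjusted p of 0.05 in edgeR (32.1%), 687 higher (14.1%) and 875 lower (18.0%). B identity genes, lymphoid factors, recombination genes, MHC class II, receptors and homing genes are described only, because the gates picked B cells and neutrophils and many of these genes passed the count filter through the B-lineage sums alone. *Blnk*, the adaptor of the pre-B and B cell receptor, stood at 522, 349 and 345 CPM and at 0 in neutrophil precursors of every library. The median log2 difference over all genes was 0.09. *Pax5* was at 154, 236 and 51.7 CPM against 1.61, 0 and 0 CPM. *Bach2*, a repressor of plasma cell fate, was at 330.04, 288 and 103 CPM against 3.22, 0 and 3.55 CPM. *Myb*, a progenitor factor, was at 325, 236 and 135 CPM against 9.65, 19.1 and 16.9 CPM. *Spi1* (PU.1), which acts at high dose in myeloid cells, was lower in members, at 104, 130.37 and 68.98 CPM against 423, 433 and 333 CPM.

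Of the recombination genes, *Rag1* was at 165, 158 and 27.6 CPM against 0, 1.91 and 0 CPM and *Rag2* at 45.2, 57.6 and 48.3 CPM against 0, 1.91 and 0 CPM. *Xrcc6*, the Ku70 end-joining gene, was at 479, 437 and 203 CPM against 4.83, 3.82 and 10.7 CPM. *Cd74* was at 562, 706 and 1014 CPM against 1.61, 1.91 and 2.66 CPM. None of 9 MHC class I genes passed, beside 32.1% of all genes. Among the cytokine receptors, *Il7r* and *Tnfrsf13c* were at 0 in neutrophil precursors of every library. Of the homing and adhesion genes, *Cxcr4* was at 436, 285 and 72.4 CPM against 41.8, 82.03 and 13.3 CPM and *Itga4* at 154, 139 and 41.4 CPM against 14.5, 24.8 and 7.11 CPM. Neutrophil precursors were higher for *Itgb2*, the β2 integrin chain of myeloid cells, at 18.6, 45.5 and 24.1 CPM against 352, 387 and 177 CPM, and *Cd44*, at 39.9, 54.6 and 31.04 CPM against 219, 261 and 84.4 CPM.

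Glycolytic enzymes were lower in members for 9 of 11 genes tested, beside 18.0% of all genes, with a median log2 difference of -1.82. *Gpi1* was at 189, 224 and 176 CPM against 706, 713 and 552 CPM, a difference of -2.48 ± 0.32 (SE, adjusted p = 0.00065) in edgeR, and *Pkm* at 184, 261 and 428 CPM against 830.06, 708 and 796 CPM, a difference of -2.24 ± 0.40 (SE, adjusted p = 0.0036). Genes listed for dissociation and the immediate early response were lower for 6 of 13 tested and higher for 1, beside 18.0% and 14.1% of all genes. *Jund* was that 1, at 2678, 2053 and 524 CPM against 314, 317 and 88.8 CPM, while *Fos* was at 53.2, 90.95 and 331 CPM against 1013, 921 and 395 CPM. Of 11 S phase genes 2 passed as higher, beside 14.1% of all genes. These were *Pcna*, which lost its call in 4 of 12 alternatives, and *Gins2*. Of 16 G2/M genes none passed, beside 32.1% of all genes in either direction. *Ptprc*, a listed B identity gene and so described only, was at 109, 112 and 44.8 CPM against 312, 343 and 78.2 CPM. Without members holding other-cell RNA *Ptprc* stood at 114, 116 and 80.5 CPM in B-lineage cells, in the sorted library no longer below the neutrophil precursors. Among the 10 genes that fell most were the neutrophil chemokine *Cxcl2* and the interleukin-1 decoy receptor *Il1r2*, both at 0 in members of every library. *Cxcl2* was at least 67.3-fold and *Il1r2* at least 68.95-fold lower. Both passed the filter on low counts through neutrophil precursors alone, so these bounds are a description only. *S100a9*, a calcium-binding protein of neutrophils, was at 157, 13652 and 37.9 CPM against 168592, 181226 and 75016 CPM, and the high value of metaphyseal replicate 2 came from 1 member, which held 99.8% of its neutrophil marker UMIs. Its call was lost without metaphyseal replicate 1. In that setting 928 genes passed, and without the *Pdgfra-GFP* library 2503. Macrophages with 5 or more C1q UMIs, the other population planned for comparison, numbered 0, 0 and 66, so no test was possible.

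RNA of other cell types was measured in every member. In the *Pdgfra-GFP* library the 10 stromal markers, led by *Sparc* at 19648 CPM, made up 6.50% of member UMIs, with a median of 0.334% and a highest value of 42.9% in a single member. Other kept cells of that library held 11.5% and near-empty droplets 9.31%. The metaphyseal libraries held 0.174% and 0.156%, with *Postn* at 0. Erythroid markers, led by *Hbb-bs* at 20122 and 45877 CPM, made up 3.78% and 8.80% of member UMIs in metaphyseal replicates 1 and 2, of which 99.4% came from 2 members in the former and 99.7% from 3 members in the latter. In the sorted library they made up 0.0766%. The sorted library was sorted for GFP, and the reporter transcript *H2B_GFP* had a UMI in 3 of its 54 members (5.56%), against 29.4% of its non-haematopoietic cells. *Pdgfra* had a UMI in 5 of 54 (9.26%), against 24.9%. Without members holding other-cell RNA *H2B_GFP* went from 10.3 to 0 CPM there and *Pdgfra* from 17.2 to 6.71 CPM. Members with 1% or more UMIs of other-cell markers numbered 6, 5 and 14. Their median was 10532 UMIs, against 3005 UMIs in the other 185, and their median gate count was 17 against 30 UMIs. Whether these are doublets or cells with free RNA was not tested.

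**Figure D5:**
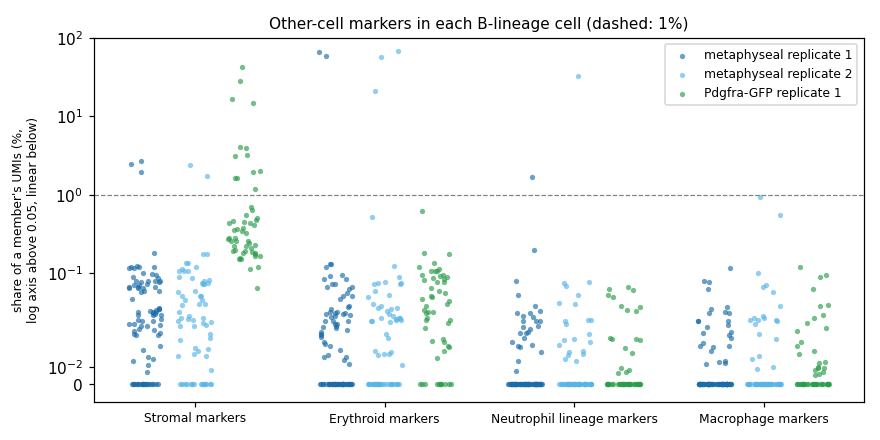
Share of each B-lineage cell's UMIs (%, log axis above 0.05% and linear below) that came from stromal, erythroid, neutrophil and macrophage markers, by library; the dashed line is 1%. Stromal shares are higher in the *Pdgfra-GFP* library, where 13 members exceed 1%, and a few metaphyseal members exceed 10% for erythroid markers.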

How the data were processed

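The 3 libraries of 10x Chromium data were analysed. The deposited values were raw UMI counts per gene and barcode, which the authors made, per the labels, with bcl2fastq, fastp 0.20, STAR 2.7.3a and STARsolo (set to resemble Cell Ranger output) on mm10. UMIs were summed per library and class (at least 10 cells) and tested with edgeR 4.0.16 in R 4.3.3 (quasi-likelihood, TMM, filterByExpr, library as block, Benjamini-Hochberg). Sums of 1 library share a suspension, and their deviations from group means correlated at 0.186 to 0.674, so libraries were paired. CPM are summed UMIs scaled to 1e6. DESeq2 1.42.0 was an alternative, Scrublet called doublets (kept) in scanpy 1.11.5, and Python 3.11.15 and scipy 1.17.1 gave intervals. On simulated data with 200 genes changed 4-fold, 192 were recovered in the neutrophil comparison (4527 genes), 196 in the cycling comparison (2265) and 196 in the surrogate light chain comparison (2427). Unchanged genes called numbered 5, 13 and 3. The simulation gave all genes the same spread, put no difference between libraries except depth, and changed well-counted genes only. It therefore checks the code and not the power or error rate in these data. The members and gene lists were chosen with earlier results of these data known. Named genes were the 10 largest changes in each direction with a mean of at least 50 CPM in the higher group, moving alike in all libraries and not unnamed or V, D or J segments, plus members of the lists, of which a selection is printed. The gate removed 10 genes from every test. The number of mice per library is unknown, so p-values measure the spread between libraries, which may be technical. The result for 1 further lineage gene is not reported here.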

Additional observations from a re-analysis of the deposited data

Results flagged for a closer look

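The share of cycling cells in the surrogate light chain positive class minus that in the other members was -26.3 and -17.5 percentage points in metaphyseal replicates 1 and 2 and 11.1 points in the *Pdgfra-GFP* library, which moved the opposite way. The level in cycling minus other members also had the opposite sign in the sorted library for 5 genes, although *Vpreb2* and *Mcl1* hardly differed there. *Vpreb2* differed by -232 and -238 CPM in the metaphyseal libraries and by 2.28 CPM in the sorted library. *Igll1* differed by -1012 and -574 CPM and by 138 CPM, and *Ebf1* by -2552 and -2352 CPM and by 158 CPM. *Jund* differed by -1802 and -1844 CPM and by 95.7 CPM, and *Mcl1* by -265 and -356 CPM and by 5.24 CPM. Between B-lineage cells and neutrophil precursors, *Mcl1* differed by -252 and -138 CPM in the metaphyseal libraries and by 11.2 CPM in the sorted library. With 1 sorted library none of these differences between the library types was tested.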

How the results depend on the processing

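Leaving out a library in turn moved the number of genes called by edgeR to between 928 and 2503 against neutrophil precursors, to between 158 and 407 for cycling members and to between 2 and 159 for surrogate light chain positive members, and with 2 libraries the fit has few degrees of freedom. Without the replicate block the counts were 974, 191 and 29, so pairing by library moved the first 2 by over 1.5 times. DESeq2's Wald test called 1036 genes against neutrophil precursors and 209 for cycling members. Without a filter on low counts edgeR called 2371, 703 and 306 genes in the 3 comparisons. For the surrogate light chain comparison, a minimum of 1500 genes in the metaphyseal libraries left 10 calls, and leaving out members with 1% or more UMIs of other-cell markers, chosen after the data were seen, gave 168. The first setting also turned *Igkc* in cycling members to 0.29 and lowered the metaphyseal shares of B-lineage cells to 1.68% and 1.497%. The share in the sorted library was 0.990% with at least 500 genes and 0.356% without those members. The causes were not tested. Of the genes whose values were recomputed, 54 of 68, 15 of 40 and 5 of 29 kept direction and side of the threshold under every alternative, and *Igkc* alone changed direction. Alternatives for macrophages were not run, since 1 library held them. Depth limits the low genes: 3 UMIs are worth 7.98, 9.10 and 10.3 CPM.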

Other observations

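*B2m*, the light chain of MHC class I, stood at 1365, 1173 and 3276 CPM in B-lineage cells and at 484, 459.7 and 2476 CPM in neutrophil precursors, highest in the sorted library in each. *Chchd10*, a mitochondrial protein gene, stood at 2108, 1552 and 1483 CPM in B-lineage cells, and *Ptprcap*, a partner of CD45, at 1054, 870.1 and 1173 CPM. Mitochondrial genes took a median of 5.66%, 6.01% and 0.704% of UMIs in B-lineage cells, and 3.82%, 3.95% and 0.905% in the other kept cells, so both were lower in the sorted library. Ribosomal genes took 20.03%, 20.8% and 20.8% in B-lineage cells against 10.5%, 10.4% and 11.9% in the other kept cells. With 1 sorted library these differences between library types were not tested.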
